A study of Mus musculus with 16 samples.

Results

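Bone morphogenetic proteins and the genes that they switch on were followed in a cardiac differentiation assay of mouse embryonic stem cells. Only a minority of the cells in this assay become cardiomyocytes, and the values are averages over all cells of a sample. The group held 10 genes of the 29310 tested, which were the ligands Bmp2, Bmp4, Bmp5 and Bmp7 and the target genes Id1, Id2, Id3, Id4, Smad6 and Msx2. They were chosen by name as ligands and direct targets, and the choice also used the measured early increase of Bmp5. The values at 6 h are therefore a description with no test, while the comparisons at 24 h were tested. CGR8-Myh6-GFP mESCs, a line that carries GFP under the promoter of the cardiac myosin gene Myh6, differentiated spontaneously in serum-containing medium and were exposed on day 4 to a treatment for 6 h or 24 h. The control groups received the vehicle DMSO (2 samples at each time). The WS1442 groups received 0.25 mg/ml of WS1442, a dry extract of hawthorn leaves with flowers (3 samples at each time). The MeOH eluate groups received 0.1 mg/ml of a fraction eluted from it with methanol, rich in oligomeric procyanidins (3 samples at each time). The labels number these 16 samples as replicates without naming separate cultures, so that p-values measure the spread between samples, which may be technical.

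BMPs are secreted proteins of the TGF-beta superfamily. They bind type I and type II receptor kinases, which phosphorylate Smad1 and Smad5, and these enter the nucleus with Smad4 and bind target genes. In the embryo the pathway takes part in the formation of mesoderm and of the heart, and its blockade or activation at different stages has opposite effects on cardiac fate. The Id proteins lack a DNA-binding domain and hold back basic helix-loop-helix factors. Smad6 is an inhibitor within the pathway that its own signal induces, and Msx2 is a homeobox repressor induced by BMPs.

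RNA was measured on 1-colour Agilent arrays, on which the brightness of a probe follows the amount of its transcript. Levels are given as log2 intensity after quantile normalization, and a difference of 1 on this scale is a doubling. All 10 genes had a probe and all passed the filter for signal above background. Of 13 probes, 3 carried a member's name in the scanner files and 10 were assigned through their transcript accession. Between 55.1% and 63% of the gene spots of an array were well above background, and replicate arrays correlated at 0.984 or more over the tested genes. The arrays of 6 h lay on 1 slide and those of 24 h on another, so that levels at 6 h and 24 h cannot be told apart from a difference between slides, whereas treated and DMSO arrays of 1 time point shared a slide.

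The sequences shown next belong to Bmp5, whose differences from DMSO had opposite signs at 6 h and 24 h, and to the 4 members that fell with MeOH eluate at 24 h. The first is the probe of the Bmp5 transcript NM_007555.3, whose values are set beside those of the main Bmp5 probe further on. The others are the 250 bases before the start site (RefSeq, GRCm38.p6), 5′ to 3′ in the direction of transcription. The Smad6 window overlaps the 5′ end of the gene's span (chr9:63953076-64022085), so that its start site differs from that end. Capitals mark letters that match GGCGCC, a GC-rich element bound by BMP-activated Smads, or CAGAC and its reverse complement GTCTG, a Smad-binding element.
Bmp5 probe: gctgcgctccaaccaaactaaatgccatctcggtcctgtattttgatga
Bmp5 promoter, chr9:75775115-75775364, plus strand: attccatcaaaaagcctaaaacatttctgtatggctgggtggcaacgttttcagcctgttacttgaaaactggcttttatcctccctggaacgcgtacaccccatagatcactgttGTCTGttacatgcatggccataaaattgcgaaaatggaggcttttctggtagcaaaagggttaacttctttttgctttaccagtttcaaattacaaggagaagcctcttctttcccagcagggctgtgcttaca
Bmp4 promoter, chr14:46390670-46390919, minus strand: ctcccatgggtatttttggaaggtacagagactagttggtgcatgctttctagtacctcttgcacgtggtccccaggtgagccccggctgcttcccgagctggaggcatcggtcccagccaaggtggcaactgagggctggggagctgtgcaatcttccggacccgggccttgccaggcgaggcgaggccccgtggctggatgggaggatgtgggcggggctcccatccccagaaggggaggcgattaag
Id2 promoter, chr12:25096093-25096342, minus strand: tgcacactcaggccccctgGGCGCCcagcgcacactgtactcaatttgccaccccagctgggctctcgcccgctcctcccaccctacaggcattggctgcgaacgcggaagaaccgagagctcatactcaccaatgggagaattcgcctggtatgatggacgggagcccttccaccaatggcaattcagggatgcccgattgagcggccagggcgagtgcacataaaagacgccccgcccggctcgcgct
Smad6 promoter, chr9:64022060-64022309, minus strand: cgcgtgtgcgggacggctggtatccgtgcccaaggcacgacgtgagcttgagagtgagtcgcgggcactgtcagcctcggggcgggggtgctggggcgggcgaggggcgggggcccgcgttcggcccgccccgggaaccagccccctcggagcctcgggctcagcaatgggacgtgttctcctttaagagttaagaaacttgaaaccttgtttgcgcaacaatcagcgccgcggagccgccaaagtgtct
Msx2 promoter, chr13:53472781-53473030, minus strand: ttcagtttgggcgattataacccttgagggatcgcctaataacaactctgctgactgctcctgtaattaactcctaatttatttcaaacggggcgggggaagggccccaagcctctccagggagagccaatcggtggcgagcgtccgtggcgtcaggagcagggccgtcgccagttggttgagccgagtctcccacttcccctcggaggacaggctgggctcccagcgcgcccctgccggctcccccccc

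A window was held for 7 of the 10 members. GGCGCC occurred in 2 of them, once each in Id2 and Id4, and in 9.59% of the 32841 windows of this length. CAGAC or GTCTG occurred in 2, once in Bmp5 and at 2 places in Id3, and in 42.2% of all windows. Bmp4, Smad6 and Msx2 held neither, which says only that these letters are absent from these windows. The Bmp5 window had a GC content of 42.8%, below the 61.6% to 75.6% of the other 6 members and the median of 52.4% over all windows.

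In DMSO the members differed in how their level at 24 h compared with 6 h. Bmp5, a ligand expressed in early mesoderm and heart, stood at 1.86 and 3.43 at 6 h and at 6.82 and 7.18 at 24 h, a difference of 4.35. Id4, Bmp7, Msx2 and Bmp4 were higher at 24 h by 1.60, 1.59, 1.39 and 0.97, and Id2, Id3, Smad6, Bmp2 and Id1 by 0.73, 0.69, 0.48, 0.26 and 0.02. These differences share the slide with the time point.

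**Figure D1:**
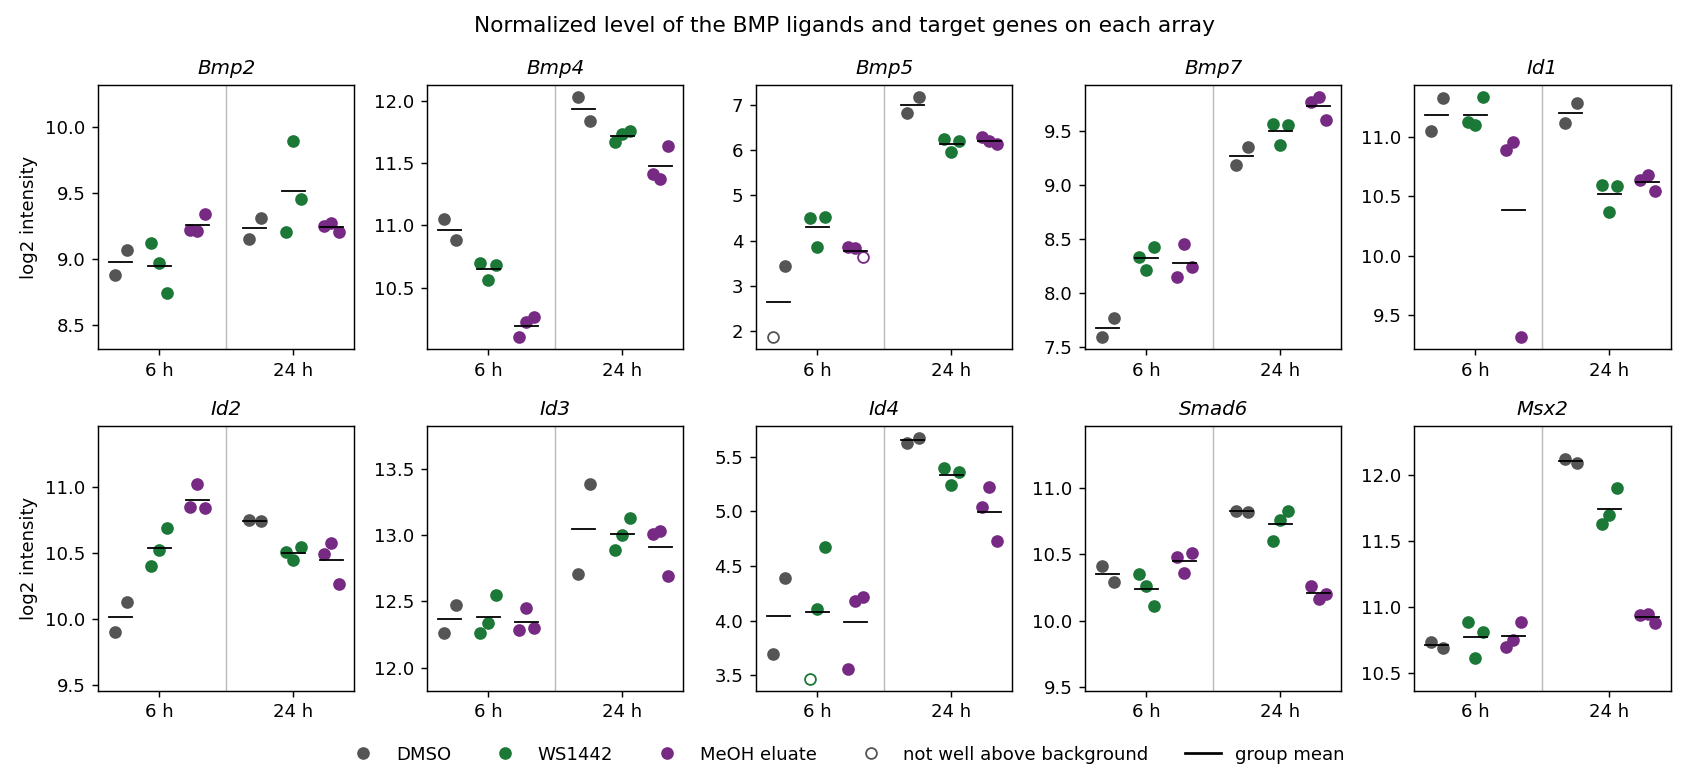
Log2 intensity of the 10 genes (1 panel each, own scale) on each of the 16 arrays, by time and treatment, with a line at each group mean. Msx2 at 24 h falls from 12.09 and 12.12 in DMSO over 11.63 to 11.90 with WS1442 to 10.88 to 10.95 with MeOH eluate, and Bmp5 at 6 h has an array at 1.86 that was not well above background.

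At 6 h the ligands differed in direction. Bmp5 was at 4.50, 3.86 and 4.52 with WS1442 and at 3.85, 3.84 and 3.63 with MeOH eluate, against 1.86 and 3.43 in DMSO. Every treated array lay above both DMSO arrays, by 1.65 ± 0.34 (SE) with WS1442 and 1.13 ± 0.34 with MeOH eluate on average. The lower DMSO array and the MeOH eluate array at 3.63 were not well above background. Without that DMSO array (replicate 1) the differences were 0.86 and 0.34, without the other DMSO array 2.44 and 1.92, and with another background correction (normexp) 0.22 and 0.12. The second Bmp5 probe, whose sequence is given above, did not stand well above background on the 8 arrays of 6 h, so that the early difference of Bmp5 rests on 1 dim probe. A further probe assigned to Bmp5 (AK079078) stayed below that mark on all 16 arrays and did not pass the filter. Its listed coordinates run opposite to those of the main Bmp5 probe, so that it may not measure the Bmp5 transcript.

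Bmp7, a ligand close to Bmp5 in sequence, was at 7.59 and 7.77 in DMSO at 6 h, at 8.33, 8.21 and 8.42 with WS1442 and at 8.15, 8.45 and 8.24 with MeOH eluate. The treated arrays all lay above the DMSO arrays, and the differences were 0.64 ± 0.11 and 0.60 ± 0.11. Bmp4, the main BMP ligand of early mesoderm, went the other way. It was at 11.05 and 10.88 in DMSO, at 10.70, 10.56 and 10.68 with WS1442 and at 10.10, 10.22 and 10.26 with MeOH eluate. The 3 groups did not overlap, with differences from DMSO of -0.32 ± 0.09 and -0.77 ± 0.09. Bmp2, which acts in heart induction, differed by -0.04 ± 0.15 with WS1442 and 0.28 ± 0.15 with MeOH eluate.

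Among the targets, Id2 stood apart at 6 h. It was at 9.90 and 10.13 in DMSO, at 10.40, 10.52 and 10.69 with WS1442 and at 10.85, 11.02 and 10.84 with MeOH eluate, differences of 0.52 ± 0.10 and 0.89 ± 0.10 with no overlap between the 3 groups. Another Id2 probe was dim and did not pass the filter, so that the values of Id2 rest on 1 probe. At 6 h the dim probe was at 3.43 and 3.54 in DMSO and at 3.46, 3.09 and 4.09 with WS1442. With MeOH eluate it was at 4.51, 4.63 and 3.88. Id3 differed by 0.02 ± 0.16 and -0.02 ± 0.16, and Id4 by 0.04 ± 0.32 and -0.06 ± 0.32. Smad6 differed by -0.11 ± 0.08 and 0.10 ± 0.08 and Msx2 by 0.06 ± 0.09 and 0.07 ± 0.09. Id1 was at 11.05 and 11.33 in DMSO and at 11.13, 11.10 and 11.34 with WS1442. With MeOH eluate it was at 10.89, 10.96 and 9.31, so that 1 array (replicate 3) set most of the difference of -0.80 ± 0.33, which was -0.26 without it.

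Counted by adjusted p-value, 3 members were higher and 1 lower at 6 h with each treatment. Over all genes 5.59% were called with WS1442 and 17% with MeOH eluate, and of those called with WS1442 74.1% were higher, or 85.1% after scaling each array to its 75th percentile. Since the choice of the members used these comparisons, nothing is read from that count. The plot of differences sets both times side by side.

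**Figure D2:**
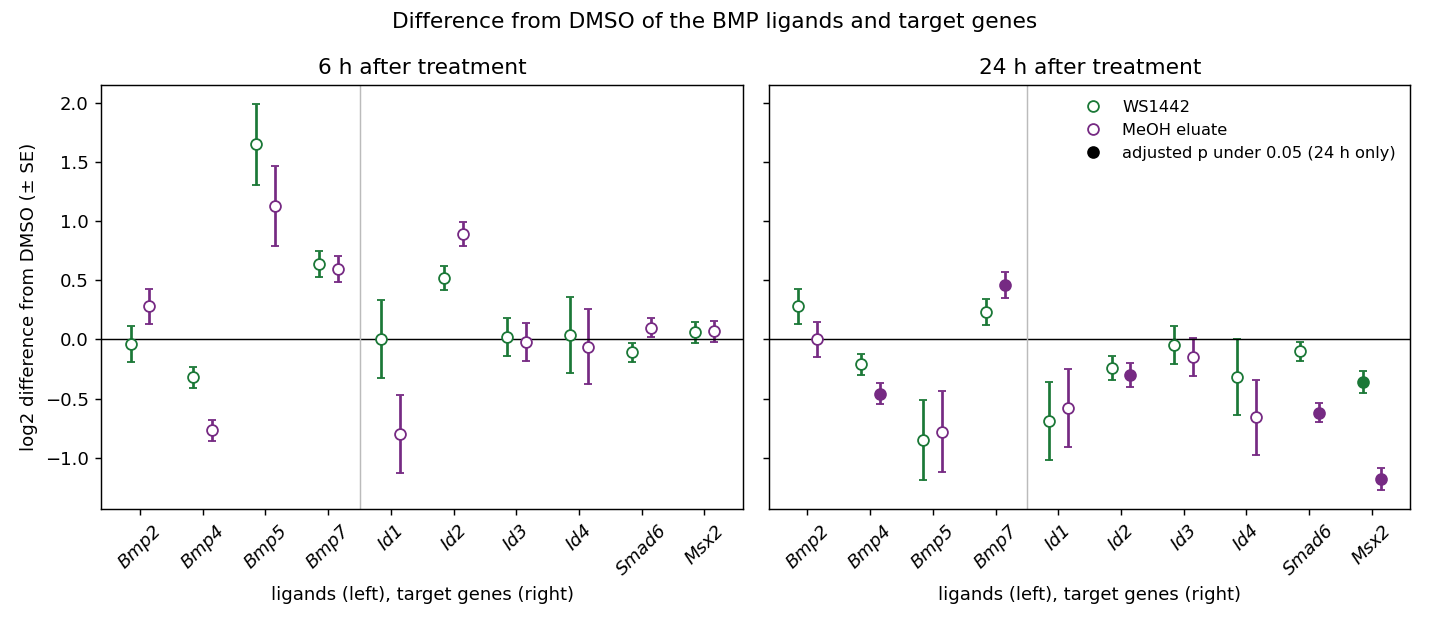
Log2 difference from DMSO of the same time (y axis, ± SE) for the 4 ligands and 6 target genes (x axis), at 6 h and 24 h. Filled points at 24 h passed an adjusted p-value of 0.05, which holds for Msx2 with WS1442 and for Bmp4, Bmp7, Id2, Smad6 and Msx2 with MeOH eluate, while points at 6 h carry no test.

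At 24 h the 6 target genes all had negative differences from DMSO with both treatments, except that Id3 was at 0.29 with WS1442 and 0.19 with MeOH eluate when DMSO replicate 2 was left out, and at 0.01 with WS1442 when WS1442 replicate 1 was. With WS1442, Msx2 fell and 9 members did not pass. With MeOH eluate, Bmp4, Id2, Smad6 and Msx2 fell, Bmp7 rose and 5 did not pass. These counts, 1 and 5 of 10, stand against 24.7% and 18.2% of all genes called in either direction, and the counts of genes that fell, 1 and 4 of 10, against 11.9% and 8.6%. Of the genes called with WS1442 at 24 h, 52% were higher, or 40.2% after scaling to the 75th percentile. In a fit of the 8 arrays of 24 h alone, 3 members were called with WS1442 and 8 with MeOH eluate, against 24.4% and 17.1% of all genes. With WS1442 the side on which the members lay of the share of all genes depended on the fit, so that nothing is read from it. With MeOH eluate the share of members lay above that of all genes in both fits. At an unadjusted p-value under 0.05 there were 5 members with WS1442 and 6 with MeOH eluate, and 0 members rose with WS1442 after adjustment by limma. The median difference was 0.01 for the ligands, -0.28 for the Id genes and -0.23 for Smad6 and Msx2 with WS1442, and -0.23, -0.44 and -0.90 with MeOH eluate, beside 0.04 and 0.01 over all genes. The treated arrays did not overlap with DMSO for 7 members with WS1442 and 8 with MeOH eluate, which is read against 51.2% and 43.6% of all genes.

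With MeOH eluate at 24 h, Msx2 had the largest difference from DMSO among the 10 members. It was at 12.12 and 12.09 in DMSO at 24 h, at 11.63, 11.70 and 11.90 with WS1442 and at 10.94, 10.95 and 10.88 with MeOH eluate. The 3 groups did not overlap. Msx2 fell by 0.36 ± 0.09 with WS1442 (limma, adjusted p = 0.0067) and by 1.18 ± 0.09 with MeOH eluate (adjusted p = 3.81e-07), to 0.78 and 0.441 times the DMSO level. Without replicate 1 of DMSO the WS1442 value missed the threshold (-0.34, adjusted p = 0.0585).

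Smad6 was at 10.83 and 10.82 in DMSO, at 10.60, 10.76 and 10.83 with WS1442 and at 10.26, 10.16 and 10.20 with MeOH eluate. WS1442 arrays reached the DMSO values and MeOH eluate arrays did not. Smad6 fell by 0.62 ± 0.08 with MeOH eluate (limma, adjusted p = 7.07e-05), and the difference with WS1442 was -0.10 ± 0.08 (adjusted p = 0.405).

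Id2 was at 10.75 and 10.74 in DMSO, at 10.51, 10.45 and 10.55 with WS1442 and at 10.49, 10.58 and 10.27 with MeOH eluate. All treated arrays thus lay below DMSO at 24 h, after lying above it at 6 h. The difference was -0.30 ± 0.10 with MeOH eluate (limma, adjusted p = 0.0477), just inside the threshold and outside it under 19 of 28 alternative settings, and -0.24 ± 0.10 with WS1442 (adjusted p = 0.0914).

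Id1 was at 11.12 and 11.29 in DMSO, at 10.60, 10.37 and 10.59 with WS1442 and at 10.64, 10.68 and 10.55 with MeOH eluate. No treated array reached DMSO, and the differences of -0.69 ± 0.33 and -0.58 ± 0.33 did not pass the test in the fit of all 16 arrays (limma, adjusted p = 0.149 and 0.269). In the fit of the 24 h arrays, which leaves out the MeOH eluate array of 6 h that stood apart, the adjusted p-values of Id1 were 0.000548 and 0.000974. Id4 was at 5.63 and 5.67 in DMSO, at 5.40, 5.24 and 5.36 with WS1442 and at 5.04, 5.22 and 4.73 with MeOH eluate, with differences of -0.32 ± 0.32 (adjusted p = 0.511) and -0.66 ± 0.32 (adjusted p = 0.183, and 0.0276 in the fit of 24 h). Id3 differed by -0.05 ± 0.16 and -0.15 ± 0.16, with a 95% interval of -0.38 to 0.29 and of -0.48 to 0.19, and its 2 DMSO arrays lay apart at 12.71 and 13.39. Without the lower of them (replicate 1), Id3 was at -0.39 with WS1442 and at -0.49 with MeOH eluate, and the latter passed (limma, adjusted p = 0.0382).

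Among the ligands, Bmp4 was at 12.03 and 11.84 in DMSO at 24 h, at 11.67, 11.73 and 11.76 with WS1442 and at 11.41, 11.37 and 11.64 with MeOH eluate. It fell by 0.46 ± 0.09 with MeOH eluate (limma, adjusted p = 0.00139). With WS1442 the difference was -0.21 ± 0.09 (adjusted p = 0.0862, and 0.0212 at -0.30 after scaling to the 75th percentile). Bmp7 was at 9.18 and 9.35 in DMSO, at 9.56, 9.37 and 9.55 with WS1442 and at 9.76, 9.81 and 9.60 with MeOH eluate. It rose by 0.46 ± 0.11 with MeOH eluate (adjusted p = 0.00659, and 0.0978 at 0.37 without DMSO replicate 1), and the difference with WS1442 was 0.23 ± 0.11 (adjusted p = 0.138). Bmp2 differed by 0.28 ± 0.15 with WS1442 (adjusted p = 0.212) and by 0.00 ± 0.15 with MeOH eluate (adjusted p = 0.991), with 95% intervals of -0.05 to 0.60 and of -0.32 to 0.33. Single WS1442 arrays moved the former value, to 0.43 without replicate 1 (limma, adjusted p = 0.0376) and to 0.09 without replicate 2. Replicate 2 was at 9.89 beside 9.20 and 9.45, and its RNA integrity number of 8.6 was the lowest of the 16 samples.

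Bmp5 at 24 h lay below DMSO on every treated array. It was at 6.82 and 7.18 in DMSO, at 6.25, 5.97 and 6.21 with WS1442 and at 6.30, 6.20 and 6.14 with MeOH eluate, differences of -0.85 ± 0.34 and -0.78 ± 0.34. The fit of all arrays, which takes its spread also from the dim arrays of 6 h, gave adjusted p-values of 0.079 and 0.131 (limma), and the fit of the 24 h arrays gave 0.00242 and 0.00378. With normexp the differences were smaller, -0.52 and -0.49, and passed (limma, adjusted p = 0.00041 and 0.000614). The second Bmp5 probe was at 5.65 and 5.73 in DMSO, at 4.86, 4.84 and 4.92 with WS1442 and at 4.84, 4.90 and 4.80 with MeOH eluate. Both probes thus placed every treated array below DMSO, and the second gave differences of -0.81 and -0.84 (adjusted p = 0.264 and 0.297 over all arrays, 0.00406 and 0.00355 within 24 h).

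The eluate was set against the whole extract at 24 h, although the doses of 0.1 and 0.25 mg/ml differ. Msx2, Smad6 and Bmp4 were lower with MeOH eluate than with WS1442, by -0.82 ± 0.08 (limma, adjusted p = 3.55e-05), -0.52 ± 0.07 (adjusted p = 0.000409) and -0.25 ± 0.08 (adjusted p = 0.0422, outside the threshold under 13 of 28 alternative settings). That was 3 of 10 members, all lower, beside 14.6% of all genes called in either direction and 7.17% called lower. The other 7 did not pass, among them Bmp5 with 0.07 (95% interval -0.57 to 0.71), Id1 with 0.11 (-0.53 to 0.74) and Id2 with -0.06 (-0.25 to 0.13).

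Marker genes of other cell types moved with the same groups, and in bulk RNA fewer cells of a type cannot be told from less RNA per cell. The summed intensity of 7 early mesoderm markers was 3720 to 3810 in DMSO, 2730 to 3000 with WS1442 and 1940 to 2130 with MeOH eluate at 6 h, and 3460 to 3470, 2810 to 2970 and 2380 to 2720 at 24 h. That of 7 cardiac progenitor markers at 24 h was 1240 to 1290, 1000 to 1120 and 651 to 770, and that of 5 endoderm markers 2620 to 2790, 2310 to 2630 and 1460 to 1770. The 5 epidermal ectoderm markers had 80500 to 82900 in DMSO, 101000 to 104000 with WS1442 and 116000 to 126000 with MeOH eluate at 24 h. Such a sum follows the brightest genes of a list. Tfap2a, on this list, went the other way, with mean log2 levels of 6.25, 6.1 and 5.86 in that order. Its differences did not pass the threshold. In the same order of groups at 24 h, 6 neuroectoderm markers had 3750 to 3880, 5270 to 5890 and 4470 to 5080, 5 primitive blood markers 528 to 545, 332 to 343 and 262 to 339, and 4 smooth muscle markers 44500 to 48900, 47400 to 51300 and 54800 to 61400. The endothelial list had 571 to 716, 585 to 645 and 571 to 613, with Cdh5 well above background on no MeOH eluate array, and the 7 pluripotency markers had 8610 to 8950, 8630 to 9260 and 8500 to 9920. All tested markers of the mesoderm, cardiac progenitor, endoderm, epidermal and pluripotency lists were well above background on every array. The cardiomyocyte list, with 4 of 6 markers tested, had 14300 to 14400 in DMSO, 12500 to 15400 with WS1442 and 12800 to 14500 with MeOH eluate at 24 h. Dye incorporation at 24 h was 25.8 to 26.1 pmol per µg in DMSO, 31.8 to 32.8 with WS1442 and 27.1 to 30.3 with MeOH eluate. The part of these markers and of the dye in the differences of the BMP genes was not tested. Hand2, Nkx2-5 and Tbx20 of the cardiac progenitor list and Tfap2a of the epidermal list are also among the other target genes below. The lists are therefore not separate readings for these genes.

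A further 67 genes of the BMP pathway, listed by role, were set beside the members, and 60 of them were tested. With WS1442 at 6 h, 3 rose and 4 fell (11.7%, against 5.59% of all genes). With MeOH eluate at 6 h, 7 rose and 15 fell (36.7%, against 17%). At 24 h, 9 rose and 13 fell with WS1442 (36.7%, against 24.7%), a split that was 6 and 15 after scaling to the 75th percentile, and 7 rose and 14 fell with MeOH eluate (35%, against 18.2%). The median difference was -0.01 in both comparisons at 6 h and -0.06 and -0.11 at 24 h. These shares describe the list and call nothing particular to it.

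Among the 15 other target genes tested, 7 fell and 0 rose with MeOH eluate at 24 h, against 8.6% of all genes that fell. With WS1442 at 24 h, 6 fell and 1 rose, against 11.9% of all genes that fell. The gene that rose was Gata2, with means of 11.22 in DMSO and 11.58. At 6 h, 2 fell and 1 rose with WS1442, and 6 fell and 2 rose with MeOH eluate. The share of all genes called there in either direction was 5.59% and 17%. Msx1, a homeobox gene related to Msx2, fell in all 4 comparisons, by 0.47 and 1.54 at 6 h and by 0.48 and 1.18 at 24 h with WS1442 and MeOH eluate (limma, adjusted p between 4.18e-09 and 0.00164). The differences of Msx2 at 6 h were 0.06 and 0.07. Tbx2, a T-box repressor of the atrioventricular canal, fell by 0.73 and 1.37 at 6 h and by 1.57 and 2.34 at 24 h. Over the alternatives its values lay between -0.83 and -0.26 with WS1442 and between -1.42 and -0.42 with MeOH eluate at 6 h. At 24 h they lay between -1.68 and -1.02 with WS1442 and between -2.45 and -1.34 with MeOH eluate. Tbx3, a close relative of Tbx2, fell by 0.60 with MeOH eluate at 6 h and by 1.03 and 1.64 at 24 h. Gata3, a zinc-finger factor, fell at 24 h by 0.55 and 1.20, and Hand2, a basic helix-loop-helix factor of the heart, by 0.49 and 0.70. Hey1, a Notch and BMP target, fell with MeOH eluate by 0.96 and 1.19 (adjusted p = 0.0496 and 0.015), and these calls were lost under 21 and 4 of 28 alternative settings. Those 4 included leaving out either DMSO array of 24 h. Cdx2, a homeobox gene of trophoblast and posterior mesoderm, fell by 1.74 with MeOH eluate at 6 h, where 1 of 3 MeOH eluate arrays was well above background and the value lay between -2.02 and -0.38 over the alternatives. At 24 h it was well above background in DMSO (mean 4.85) and on no MeOH eluate array (mean 3.37). That made it at least 2-fold lower in the main fit. Over the alternatives the log2 difference lay between -1.82 and -0.36, so that this bound did not hold in all of them. Atoh8, a basic helix-loop-helix factor, rose by 0.65 and 0.77 at 6 h and fell by 0.54 with WS1442 at 24 h.

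**Figure D3:**
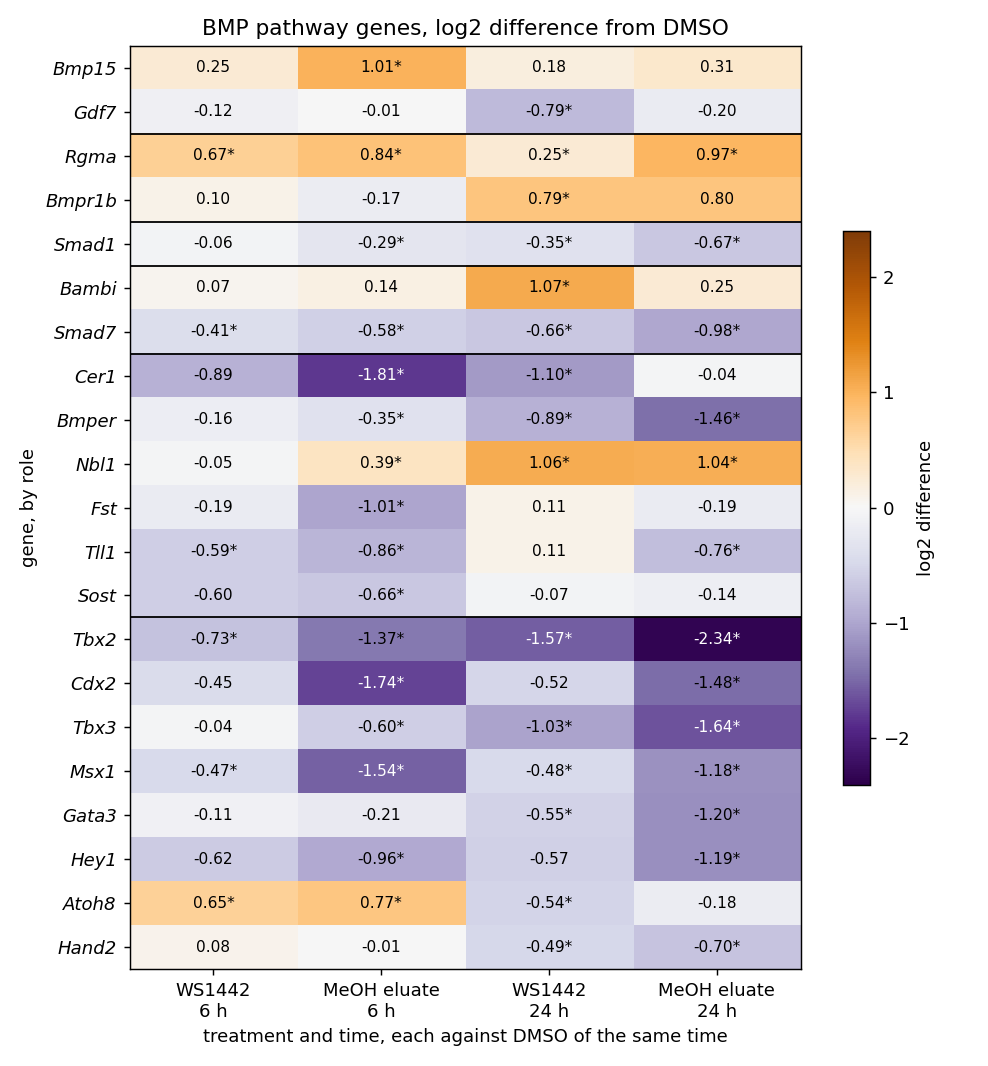
Log2 difference from DMSO (colour and number) of 21 genes of the BMP pathway (rows, grouped by role) with both treatments at both times (columns). A star marks an adjusted p-value under 0.05. Smad7 and Msx1 carry a star and a negative value in all 4 columns, and Rgma a star and a positive value in all 4.

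The intracellular part of the pathway differed by gene. Smad1, which carries the BMP signal to the nucleus, fell by 0.29 with MeOH eluate at 6 h and by 0.35 and 0.67 at 24 h with WS1442 and MeOH eluate (limma, adjusted p = 0.00378, 0.000652 and 2.02e-06). Smad7, an inhibitory Smad like Smad6, fell by 0.41 and 0.58 at 6 h and by 0.66 and 0.98 at 24 h. The differences of Smad6 at 6 h were -0.11 and 0.10. Bambi, a pseudoreceptor that dampens the signal, rose by 1.07 ± 0.13 with WS1442 at 24 h (adjusted p = 5.73e-05), whereas the MeOH eluate value was 0.25 (adjusted p = 0.207) and was lower than that of WS1442 by -0.82 ± 0.11 (adjusted p = 0.000461).

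At the receptors, Rgma, a BMP co-receptor, rose in each of the 4 comparisons with DMSO, by 0.67 and 0.84 at 6 h and by 0.25 and 0.97 at 24 h. Its value of 0.25 with WS1442 at 24 h (limma, adjusted p = 0.0432) missed the threshold under 14 of 28 alternative settings, among them scaling to the 75th percentile and leaving out either DMSO array of 24 h. Bmpr1b, a type I receptor, rose by 0.79 with WS1442 at 24 h (limma, adjusted p = 0.0416). It was well above background on 2 of 3 WS1442 arrays and on no DMSO array, with means of 3.84 and 3.05. That made it at least 1.24-fold higher in the main fit, where the WS1442 mean takes in all 3 arrays. Over the alternatives the log2 difference lay between 0.14 and 1.11, so that this bound did not hold in all of them. The call was lost under 16 of the 27 alternative settings that tested it. Among the other ligands, Bmp15 rose by 1.01 with MeOH eluate at 6 h (adjusted p = 0.0205) and Gdf7 fell by 0.79 with WS1442 at 24 h (adjusted p = 0.0206). Gdf7 was well above background on 1 of 3 arrays of that WS1442 group.

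The extracellular antagonists and modulators moved in both directions. Bmper, which binds BMPs outside the cell, fell by 0.35 with MeOH eluate at 6 h and by 0.89 and 1.46 at 24 h. Nbl1, an antagonist of the DAN family, rose by 0.39 with MeOH eluate at 6 h and by 1.06 and 1.04 at 24 h. Cer1, an antagonist made by early endoderm, fell by 1.81 with MeOH eluate at 6 h (limma, adjusted p = 0.00037) and by 1.1 with WS1442 at 24 h (adjusted p = 0.0076), and was at -0.04 with MeOH eluate at 24 h. At 6 h, Cer1 was well above background on 1 of 3 MeOH eluate arrays, and that value lay between -2.08 and -0.50 over the alternatives. Fst, which binds activins and BMPs, fell by 1.01 and Sost by 0.66 with MeOH eluate at 6 h. Tll1, a protease that frees BMPs from chordin, fell by 0.59 and 0.86 at 6 h and by 0.76 with MeOH eluate at 24 h.

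Beside those of Rgma, Bmpr1b and Hey1, several calls of the named pathway genes were lost when 1 array was left out. Without DMSO replicate 1 of 6 h these were Tll1, Tbx2 and Atoh8 with WS1442 and Bmper, Nbl1, Sost and Bmp15 with MeOH eluate, all at 6 h. Without DMSO replicate 2 of 6 h they were Tll1 and Tbx2 with WS1442 and Bmper and Smad1 with MeOH eluate at 6 h. At 24 h, Hand2 and Gdf7 with WS1442 and Cdx2 with MeOH eluate were lost without DMSO replicate 1, and Cer1 with WS1442 without DMSO replicate 2. Among the treated arrays, Tll1 with WS1442 was lost without WS1442 replicate 3 of 6 h, Gdf7 without WS1442 replicate 1 of 24 h, Sost and Bmp15 without MeOH eluate replicate 3 of 6 h, and Bmp15 also without replicate 1.

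The difference between the effect at 24 h and that at 6 h was tested as an interaction for the pathway genes outside the members. It passed for 14 of 60 with WS1442 and 18 of 60 with MeOH eluate, which is 23.3% and 30%, against 12.7% and 7.78% of all genes.

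The genes whose pattern over the 16 arrays was most like that of Bmp5, after subtracting the DMSO mean of each time, were Spn (Pearson r = 0.965), Sik1 (0.965), Ccdc34 (0.96), Sh3bp1 (0.96) and Lipt2 (0.958), among 16768 genes. Spn had differences of 0.71 and 0.44 at 6 h and of -0.73 and -0.70 at 24 h. For Id1 they were Ppp1r16a (0.955), Pcsk1 (0.936), Prss22 (0.907), Pop5 (0.893) and Aurkb (0.889). The low Id1 array (MeOH eluate replicate 3 of 6 h, at 9.31 beside 10.89 and 10.96) weighs heavily in these values for Id1. These correlations are descriptions over arrays that share slides and controls.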

How the data were processed

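Gene expression of differentiating CGR8-Myh6-GFP mESCs was measured on 16 1-colour Agilent arrays in 6 groups. The authors labelled RNA with Cy3 and scanned the arrays, and they deposited spot intensities that the feature extraction had corrected for background. These intensities are not normalized between arrays. A further deposited table holds linear intensities that are quantile normalized, with a median of 23.7 in every column, and it was used as an alternative because each column correlated best with its own array (r of 0.999 or more). The array design refers to the mouse build mm9.

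Spots marked non-uniform were set missing (92 values among tested genes, 0 in the members), spots of a probe were averaged, and log2 intensities were quantile normalized over all arrays with limma 3.58.1 in R 4.3.3. Tables and figures were made in Python 3.11.15. Probes had to stand well above background throughout 1 or more of the 6 groups, and the brightest such probe stood for its gene, which left 36729 probes and 29310 genes. Of 60273 gene probes, 42261 had 1 symbol through the accessions of RefSeq (GRCm38.p6), 856 several and 17156 none. Group means were fitted with limma (trended variance prior), and p-values were adjusted by Benjamini-Hochberg over all genes, with a threshold of 0.05. The number of arrays limits the precision. Bounds for groups below background use the lowest signal well above background on each array or the gene's own, whichever is higher. They are taken from the group means of the main fit and leave out the spread between arrays.

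The members, the pathway and marker lists and the tests were chosen with earlier results of these data known. Pathway genes are named where they passed the threshold with a log2 difference over 0.5 against DMSO, up to 8 of each role. The procedure was tested on simulated data. Deviations of same-numbered samples from their group means correlated between -0.235 and 0.305, highest for replicate 1 of WS1442 and MeOH eluate at 6 h. The main fit used no pairing, and the replicate number entered as a block in an alternative. Alternatives covered scaling, background correction, filter, probe choice, source table, arrays in the fit, variance prior, Student's t-test, array weights, blocks and each array left out. The paper names that t-test for pairwise comparisons in general and names no test for the arrays.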

Additional observations from a re-analysis of the deposited data

Results flagged for a closer look

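For Bmp5 and Id2, every treated array lay above both DMSO arrays at 6 h and below both at 24 h. Over all genes, treated arrays did not overlap with DMSO for 36% with WS1442 and 50.2% with MeOH eluate at 6 h. At 24 h these shares were 51.2% and 43.6%. How many of all genes changed sides in this way was not counted. The effect at 24 h minus that at 6 h was -2.50 for Bmp5 and -0.76 for Id2 with WS1442, and -1.91 and -1.19 with MeOH eluate. The values of Bmp5 rest on a dim probe at 6 h and were -0.74 and -0.60 with normexp, -1.72 and -1.12 without DMSO replicate 1 of 6 h, and -3.30 and -2.70 without replicate 2. Those of Id2, which rest on its only probe that passed the filter, lay between -0.88 and -0.65 and between -1.30 and -1.07 over the alternatives. The difference was not tested, because the choice of the members used the values at 6 h.

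Among the named pathway genes, the effect differed between 24 h and 6 h by an interaction term (limma, adjusted p-values over all genes). With WS1442 the difference was positive for Nbl1 (1.12, adjusted p = 0.000354), Bambi (1.00, adjusted p = 0.00415) and Tll1 (0.71, adjusted p = 0.0188). It was negative for Atoh8 (-1.19, adjusted p = 0.00129), Tbx3 (-0.99, adjusted p = 0.000911), Tbx2 (-0.84, adjusted p = 0.017), Bmper (-0.73, adjusted p = 0.00208), Gata3 (-0.44, adjusted p = 0.0364), Rgma (-0.43, adjusted p = 0.0285) and Smad1 (-0.29, adjusted p = 0.0322).

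With MeOH eluate the difference was positive for Cer1 (1.77, adjusted p = 0.00871), Fst (0.82, adjusted p = 9.51e-05), Nbl1 (0.64, adjusted p = 0.00538) and Msx1 (0.35, adjusted p = 0.0315) in the limma fit. Cer1 was well above background on 1 of 3 MeOH eluate arrays at 6 h, so that the size of its difference is uncertain. The difference was negative for Bmper (-1.11, adjusted p = 3.39e-05), Tbx3 (-1.04, adjusted p = 0.00018), Gata3 (-0.99, adjusted p = 0.000197), Tbx2 (-0.98, adjusted p = 0.00825), Atoh8 (-0.95, adjusted p = 0.00285), Hand2 (-0.69, adjusted p = 0.0419), Smad1 (-0.39, adjusted p = 0.00929) and Smad7 (-0.39, adjusted p = 0.0199).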

How the results depend on the processing

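Of 840 values of the members at 24 h under alternative settings, 766 kept their direction and their side of the threshold, 40 no longer passed, 21 newly passed and 13 changed sign without passing in either fit (5 of Bmp2, 4 of Id3, 3 of Bmp5 and 1 of Id2). A value that passed changed sign in 0. Members called with WS1442 at 24 h (1) were 2 after scaling to the 75th percentile (24.4% of all genes called) and with normexp (23.7%), and 3 in the fit of 24 h (24.4%). They were 0 with Student's t-test after Benjamini-Hochberg adjustment (0.355%, and 5 members at an unadjusted p-value under 0.05), and 0 to 2 with 1 array left out. Those called with MeOH eluate (5) were 8 in the fit of 24 h (17.1%), 1 with the t-test (1.1%) and 4 to 6 with 1 array left out, and those lower than with WS1442 (3) were 0 with the t-test (0.72%, 3 unadjusted) and 2 to 3. Pathway genes called at 6 h were 4 in the fit of 6 h and 0 with the t-test (13 unadjusted) for WS1442, and 4 to 9 with 1 array left out, and 0 with the t-test (25 unadjusted) and 14 to 23 for MeOH eluate. At 24 h they were 0 with the t-test (23 unadjusted) and 14 to 22 for WS1442, and 4 with the t-test and 14 to 22 for MeOH eluate. The lowest counts, 14, came without DMSO replicate 1 of 6 h for MeOH eluate at 6 h and without DMSO replicate 1 of 24 h for both treatments at 24 h. The cause of these changes was not tested. With the replicate number as a block, members called were 1, 4 and 3 and pathway genes 5, 21, 18 and 18 in the same order, and genes called in all were 555 and 3407 at 6 h and 5331 and 4067 at 24 h. The second Bmp5 probe was added after seeing the data. Requiring signal above background on all arrays left Bmp5 and Id4 without a value. With 2 DMSO arrays at each time, 1 array can decide a call, and dim probes such as those of Bmp5 and Id4 carry a larger error.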
